A study of Mus musculus with 10 samples.

Results

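The 8 genes described here encode histone demethylases that act on methylated lysine 9 of histone H3 (H3K9): Kdm3a, Kdm3b and Jmjd1c of the KDM3 branch, Kdm4a, Kdm4b and Kdm4c of the KDM4 branch, and the plant homeodomain finger proteins Phf8 and Phf2. They were taken by symbol from a table of 13578 genes, and all 8 had a row. RNA came from the gonads of individual female mouse embryos (embryonic day 13.5), from the somatic cells that remained once cells carrying Oct4, a factor of germ cells, had been sorted away. In 5 embryos vitamin C had been withdrawn from the diet in early gestation, and in 5 embryos it had been supplied at a physiological level. All 10 embryos were Gulo-/- on a C57BL/6 background, so both groups lacked gulonolactone oxidase, without which mice cannot make vitamin C, and depended on intake. The labels do not say which embryos were litter mates, and p-values reflect only how far these samples spread.

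Methylation of H3K9 marks silent chromatin, and the 8 enzymes described here share a Jumonji C fold that uses iron, oxygen and the metabolite 2-oxoglutarate. Vitamin C keeps the iron of such enzymes in its reduced, active form, which concerns the activity of the protein and need not involve the level of its RNA. KDM3 enzymes remove the mono- and dimethyl mark, KDM4 enzymes the di- and trimethyl mark and also methylated lysine 36, and Phf8 and Phf2 the mono- and dimethyl marks. In the mouse gonad Kdm3a is known for removing H3K9 dimethylation at the sex-determining gene Sry in males, and Kdm3a, Kdm4b and Kdm4c are known targets of the hypoxia-inducible factors (HIF).

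Promoters of 3 members that hold the HIF core letters ACGTG or GCGTG are shown, as some members are known HIF targets. HIF target genes are set beside the family further on. Phf8 is not among the HIF targets named above, and Kdm4b, which is, had no window. Each runs 5′ to 3′ from 250 bases before to 50 bases after a RefSeq transcript start on GRCm38.p6, with the core letters or their reverse complement in capitals. The Kdm3a window lies at chr6:71632868-71633167 on the minus strand, the Kdm4c window at chr4:74251629-74251928 and the Phf8 window at chrX:151520422-151520721, both on the plus strand.
Kdm3a: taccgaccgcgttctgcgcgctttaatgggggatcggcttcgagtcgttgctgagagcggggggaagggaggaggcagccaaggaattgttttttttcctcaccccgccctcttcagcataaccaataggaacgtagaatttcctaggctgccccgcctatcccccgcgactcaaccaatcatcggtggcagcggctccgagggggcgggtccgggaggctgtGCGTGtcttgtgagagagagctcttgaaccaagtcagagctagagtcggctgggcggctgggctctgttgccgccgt
Kdm4c: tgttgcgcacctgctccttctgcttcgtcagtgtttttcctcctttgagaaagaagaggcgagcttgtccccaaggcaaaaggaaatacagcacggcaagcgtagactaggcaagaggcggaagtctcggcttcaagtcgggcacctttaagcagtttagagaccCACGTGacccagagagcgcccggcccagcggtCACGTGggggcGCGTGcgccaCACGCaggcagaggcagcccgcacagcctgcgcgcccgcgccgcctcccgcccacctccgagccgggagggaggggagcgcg
Phf8: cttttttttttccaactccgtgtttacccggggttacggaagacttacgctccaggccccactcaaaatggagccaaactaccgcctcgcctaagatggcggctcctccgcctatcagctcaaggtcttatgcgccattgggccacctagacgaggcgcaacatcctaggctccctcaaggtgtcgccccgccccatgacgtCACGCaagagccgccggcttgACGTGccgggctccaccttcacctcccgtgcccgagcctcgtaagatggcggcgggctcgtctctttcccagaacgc
The Kdm3a window held 1 match and the Phf8 window 2. The Kdm4c window held 6 matches over both strands, of which 4 come from 2 copies of the palindrome CACGTG, whose strands overlap. Of all 32851 promoter windows of this length, 19.6% held ACGTG, 32.4% held GCGTG and 43.8% held either, so these letters are common. Of 10 windows for 6 of the 8 members, 1 of Jmjd1c held 3 further matches, and the remaining 6 (of Kdm3a, Jmjd1c, Kdm4a, Kdm4c and Phf2) held 0.

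Expression was given by the authors as regularised log2 (rlog) values, on which a difference of 1 is a doubling and the differences of weakly expressed genes are shrunken. Sample medians over all genes lay between 9.12 and 9.14. Read depth cannot be recovered from such values, and counting error is therefore unknown. Changes are withdrawn minus supplied on this scale, ± marks the SD over n = 5 embryos, and intervals are 95% intervals from limma, a linear model fitted to all 13578 genes with Benjamini-Hochberg adjustment. In bulk RNA, fewer cells of a type and less RNA per cell cannot be told apart.

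Markers of the labelled cell type were present. All 11 genes of gonadal somatic and supporting cells (Nr5a1, Gata4, Wt1, Foxl2 and others) had a row, and 9 of 13 germ cell genes, Pou5f1 (Oct4), Ddx4 and Dazl among them, had none. The mean of the 4 germ cell genes with a row (Rec8, Tdrd1, Nanos3 and Dnd1) was 5.92 to 6.12 in withdrawn embryos and 6.15 to 6.24 in supplied embryos. That gap came from Rec8 (difference -0.48), the only 1 of the 4 whose groups did not overlap, and Tdrd1 (-0.20). Dnd1 differed by -0.031 and Nanos3 by 0.028. Both lay near the floor of the table, where differences are shrunken. Dnd1 was at 4.76 and 4.79, and Nanos3 at 4.43 and 4.40, in withdrawn and supplied embryos. The mean of the 10 stromal genes was 13.01 to 13.14 in withdrawn embryos and 12.83 to 13.03 in supplied embryos. Of these, 9 were above 0 and 1 (Tcf21) below. By limma 4 of 10 had an unadjusted p under 0.05, all higher, against 5.3% of all genes. They were Dcn (0.24), Col3a1 (0.19), Pdgfra (0.15) and Maf (0.12), and 0 passed adjustment. Means of the endothelial genes were 9.14 to 9.29 and 9.24 to 9.44 in withdrawn and supplied embryos, those of the macrophage genes 7.59 to 7.84 and 7.59 to 7.85, and those of the red blood cell genes (7 of 10 with a row) 9.20 to 9.89 and 9.08 to 9.92. Among the endothelial genes, Eng differed by -0.39 and the others by -0.069 (Cdh5) to 0.023 (Egfl7), with 3 of 10 above 0. Among the macrophage genes, Lyz2 differed by -0.30 and Itgam by -0.22, with 3 of 10 above 0 and Mrc1 the highest (0.10). The part of these cell types in the values of the demethylase genes was not tested.

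None of the 8 H3K9 demethylase genes passed the test when vitamin C was withdrawn, in either direction. By limma, 0 of 8 had an adjusted p under 0.05, against 0.0221% of all genes (3 of 13578, all lower), and 0 of 8 had an unadjusted p under 0.05, against 5.3% of all genes (2.45% higher and 2.84% lower). The differences ran from -0.059 (Kdm4b) to 0.081 (Kdm3b), and no 95% interval reached beyond -0.15 or 0.18. On the rlog scale these bounds are 0.902-fold (Kdm4b) and 1.13-fold (Kdm3b). In none of the 8 did the 5 withdrawn embryos lie wholly above or wholly below the 5 supplied ones, which 0.81% of all genes did. Of all genes, 12.4% differed by more than the farthest member.

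**Figure D1:**
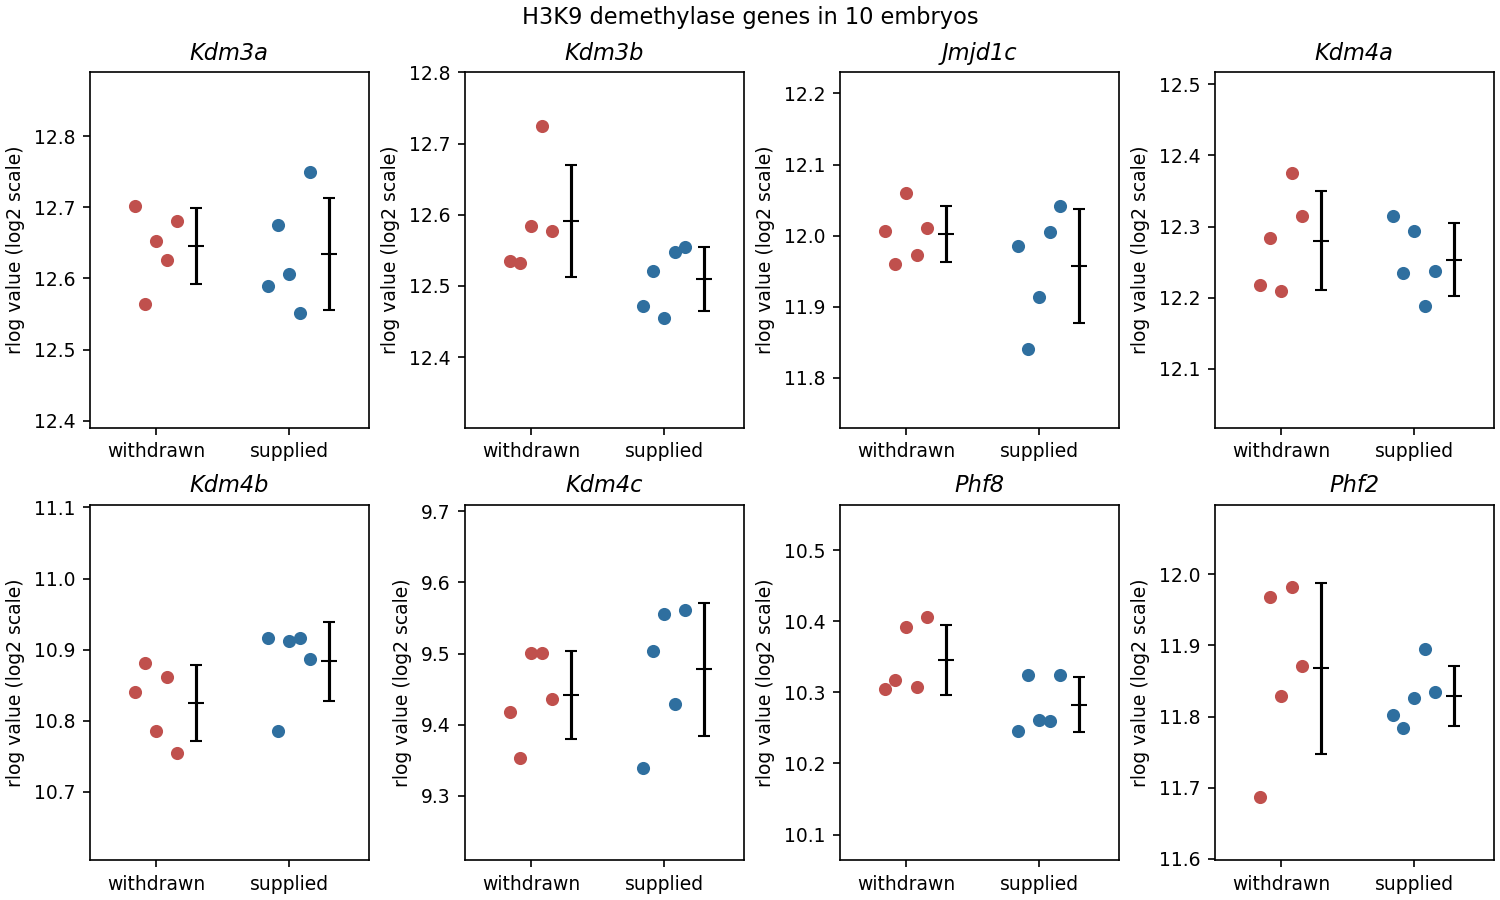
Each panel plots the rlog value (log2 scale) of 1 gene in each embryo, withdrawn embryos in red and supplied embryos in blue, with the mean and SD (n = 5) beside the points; each axis spans 0.5 and starts above 0. The groups overlap in all 8 panels, and the widest range is that of Phf2 (0.295).

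In the KDM3 branch all 3 genes were high in the table, and none separated the groups. Kdm3a, whose product removes H3K9 mono- and dimethylation, was at 12.70, 12.56, 12.65, 12.63 and 12.68 in withdrawn embryos 1 to 5, against 12.59, 12.68, 12.61, 12.55 and 12.75 in supplied embryos 1 to 5. Both the highest and the lowest embryo were supplied ones (5 and 4), so the withdrawn values lay within the supplied range. The means were 12.65 ± 0.0536 and 12.63 ± 0.0782 in withdrawn and supplied embryos, a difference of 0.011 (SE 0.0473, interval -0.089 to 0.11, limma adjusted p = 0.999). That sign turned to -0.0096 with quantile normalization, and it turned to between -0.0098 and -0.00025 without any 1 of withdrawn embryo 1, supplied embryo 1 and supplied embryo 4.

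Kdm3b, a close relative of Kdm3a that mice need for normal reproduction, was at 12.54, 12.53, 12.58, 12.72 and 12.58 in withdrawn embryos, against 12.47, 12.52, 12.45, 12.55 and 12.55 in supplied embryos. All 5 withdrawn embryos lay above the supplied median, and 3 of them lay above every supplied embryo. The means were 12.59 ± 0.0786 in withdrawn and 12.51 ± 0.0448 in supplied embryos, a difference of 0.081 (SE 0.0464, interval -0.017 to 0.18, unadjusted p = 0.0997, limma adjusted p = 0.960). Withdrawn embryo 4 stood apart at 12.72, and without it the difference was 0.047. Kdm3b was the member of smallest p.

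Jmjd1c, the third KDM3 gene, required for the upkeep of male germ cells in mice, was at 12.01, 11.96, 12.06, 11.97 and 12.01 in withdrawn embryos, against 11.99, 11.84, 11.91, 12.00 and 12.04 in supplied embryos. The withdrawn embryos were close together, whereas supplied embryo 2 was the lowest of all 10. The means were 12.00 ± 0.0395 in withdrawn and 11.96 ± 0.0800 in supplied embryos, with a difference of 0.045 (SE 0.0456, interval -0.052 to 0.14, limma adjusted p = 0.991). Without supplied embryo 2 the difference was 0.016. With embryos that share the first title number averaged, which were embryos 2 and 3 in each group, it was 0.023. Averaged over the 3 KDM3 genes, the level was 12.41 ± 0.0355 in withdrawn embryos and 12.37 ± 0.0479 in supplied embryos, which is given as a description.

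In the KDM4 branch Kdm4a lay on the opposite side of 0 from Kdm4b and Kdm4c, and again no gene passed. Kdm4a, which removes di- and trimethyl marks of H3K9 and of lysine 36, was at 12.22, 12.28, 12.21, 12.38 and 12.31 in withdrawn embryos, against 12.32, 12.23, 12.29, 12.19 and 12.24 in supplied embryos. Withdrawn embryo 4 was the highest and supplied embryo 4 the lowest, with the other 8 mixed. The means were 12.28 ± 0.0691 in withdrawn and 12.25 ± 0.0509 in supplied embryos, a difference of 0.027 (SE 0.0452, interval -0.069 to 0.12, limma adjusted p = 0.992), which was -0.0014 with quantile normalization. Without withdrawn embryo 4 it was 0.0028, without supplied embryo 4 it was 0.010, and it was 0.042 to 0.044 without withdrawn embryo 1, withdrawn embryo 3 or supplied embryo 1.

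Kdm4b was at 10.84, 10.88, 10.79, 10.86 and 10.76 in withdrawn embryos, against 10.92, 10.79, 10.91, 10.92 and 10.89 in supplied embryos. No withdrawn embryo reached the supplied median, but supplied embryo 2 was nearly as low as withdrawn embryo 3. The means were 10.82 ± 0.0530 in withdrawn and 10.88 ± 0.0561 in supplied embryos, a difference of -0.059 (SE 0.0430, interval -0.15 to 0.032, limma adjusted p = 0.978). This was the lowest difference among the 8 members.

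Kdm4c, the member of lowest level, was at 9.42, 9.35, 9.50, 9.50 and 9.44 in withdrawn embryos, against 9.34, 9.50, 9.56, 9.43 and 9.56 in supplied embryos. The withdrawn values lay within the supplied range. The means were 9.44 ± 0.0617 in withdrawn and 9.48 ± 0.0937 in supplied embryos, a difference of -0.036 (SE 0.0509, interval -0.14 to 0.071, limma adjusted p = 0.992). It was -0.071 without supplied embryo 1, and between -0.017 and -0.014 without any 1 of withdrawn embryo 2, supplied embryo 3 and supplied embryo 5. Over the 3 KDM4 genes the mean level was 10.85 ± 0.0361 in withdrawn embryos and 10.87 ± 0.0347 in supplied embryos.

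The 2 plant homeodomain finger genes were both slightly above 0, and neither passed. Phf8, an X-linked gene whose product reads trimethylated lysine 4 of histone H3 and removes H3K9 dimethylation, was at 10.30, 10.32, 10.39, 10.31 and 10.41 in withdrawn embryos, against 10.25, 10.32, 10.26, 10.26 and 10.32 in supplied embryos. All 5 withdrawn embryos lay above the supplied median, and withdrawn embryos 3 and 5 lay above every supplied embryo. The means were 10.35 ± 0.0493 in withdrawn and 10.28 ± 0.0383 in supplied embryos, a difference of 0.062 (SE 0.0409, interval -0.024 to 0.15, limma adjusted p = 0.963).

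Phf2, which removes H3K9 dimethylation together with the DNA-binding protein Arid5b, was at 11.69, 11.97, 11.83, 11.98 and 11.87 in withdrawn embryos, against 11.80, 11.78, 11.83, 11.90 and 11.83 in supplied embryos. The highest and the lowest of all 10 embryos were both withdrawn (4 and 1), so the supplied values lay within the withdrawn range. The means were 11.87 ± 0.120 in withdrawn and 11.83 ± 0.0422 in supplied embryos, a difference of 0.039 (SE 0.0534, interval -0.074 to 0.15, limma adjusted p = 0.991). It was 0.084 without withdrawn embryo 1, 0.014 without withdrawn embryo 2 and 0.011 without withdrawn embryo 4. The residual SD of Phf2 (0.0898) was the largest of the 8 and stood at the 71.0 percentile of all genes. That of Phf8 (0.0441) was the smallest, at the 11.3 percentile, and the median over the members was 0.0635 against 0.0730 over all genes. Between Phf2 and Phf8 the SDs differed in withdrawn embryos (0.120 and 0.0493) more than in supplied embryos (0.0422 and 0.0383), which was not tested.

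**Figure D2:**
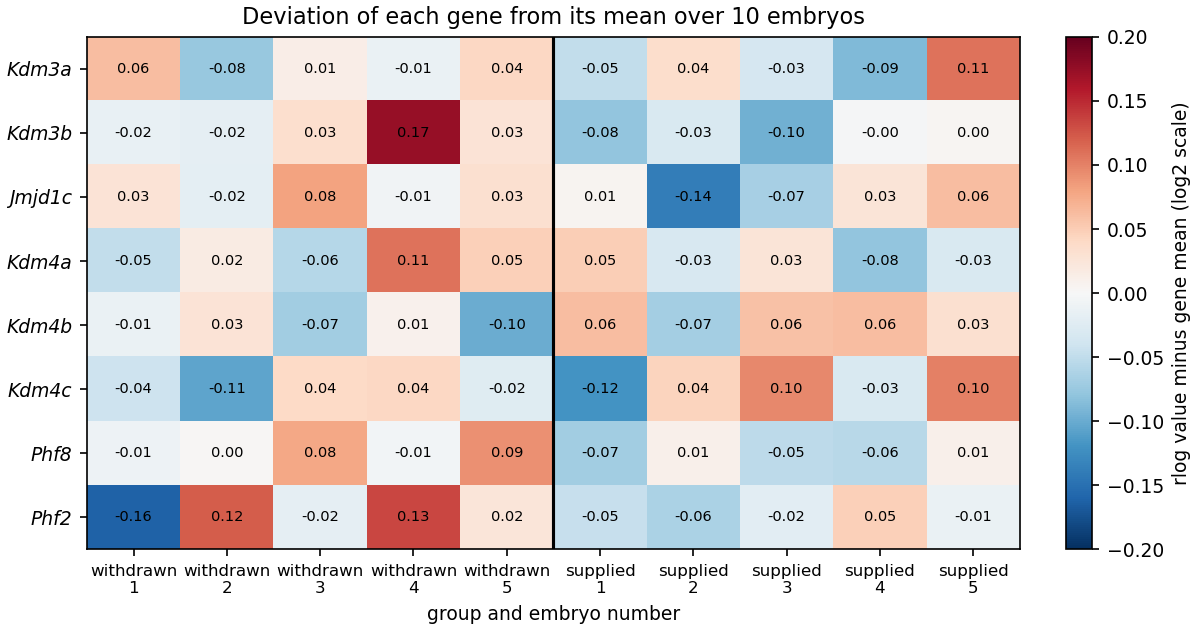
Each cell gives the rlog value of a gene in an embryo minus that gene's mean over the 10 embryos (log2 scale), with withdrawn embryos left of the line and supplied embryos right of it. The cells farthest from 0 belong to single embryos: Kdm3b in withdrawn embryo 4 (12.72), Phf2 in withdrawn embryo 1 (11.69) and Jmjd1c in supplied embryo 2 (11.84).

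Over the family the differences were centred slightly above 0. Of the 8 members 6 were above 0, with Kdm4b and Kdm4c below it, where 50.2% of all genes were above 0, and with quantile normalization 4 of 8 were above 0. The median difference of the members was 0.033, against 0.00021 over all genes, and the median size without sign was 0.042, against 0.032. As the 8 genes share the same 10 libraries, these counts are a description.

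Set per length of transcript, Kdm4a and Kdm3a had the highest levels of the family and Kdm4c the lowest. On the rlog scale minus log2 of the length in kb of the principal GENCODE M21 transcript, withdrawn and supplied embryos averaged 10.57 and 10.54 for Kdm4a, 10.37 and 10.36 for Kdm3a, and 9.92 and 9.84 for Kdm3b. Next came Phf2 (9.41 in withdrawn and 9.37 in supplied embryos) and Jmjd1c (8.93 and 8.89), followed by Kdm4b (8.63 and 8.69), Phf8 (8.45 and 8.38) and Kdm4c (7.37 and 7.41). For these principal transcripts, each gene's range over the 10 embryos lay clear of its neighbours' in this order. Kdm4a (lowest embryo 10.475) and Kdm3a (highest embryo 10.470) nearly met. The order of the first pair depends on the transcript chosen, since with the longest coding transcript Kdm4a was at 10.06 and 10.03, below Kdm3a, while the other 6 kept their places. Among the 11954 genes with a principal transcript, Kdm4a stood at the 94.5 percentile per length and Kdm4c at the 43.9 percentile. The lengths are those of GRCm38, another build than the one used for the table.

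Overlapping genes could share reads with some members, as no source used here states whether counting used strand. On the opposite strand, the antisense RNA A230083N12Rik overlaps Kdm4c and the antisense RNA Phf2os1 overlaps Phf2. The long noncoding RNA Gm26538 overlaps Kdm3b, and the coding gene Reep3 overlaps Jmjd1c. Small RNA genes overlap Jmjd1c, Kdm4a and Phf8, and no annotated gene overlaps Kdm3a or Kdm4b.

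Between embryos the members did not move as a block. Over group-centred values in the 10 embryos, 15 of the 28 pairs had a positive and 13 a negative Pearson r, with a median of 0.094. The median size of r between members was 0.242, against 0.272 between a member and any gene of the table. No pair passed (0 of 28) with exact permutation within groups (14400 orders, two-sided) and Benjamini-Hochberg adjustment over the pairs, and 1 pair had an unadjusted p under 0.05 by Pearson's r and 1 by Spearman's rho. By Pearson's r the highest value was between Kdm3a and Phf8 (r = 0.59, exact permutation p = 0.0858, adjusted p = 0.796; rho = 0.27, exact permutation p = 0.435, adjusted p = 0.870). Without the 2 embryos farthest from the median of Kdm3a, supplied embryos 5 and 4, its r was 0.49. By Spearman's rho the highest pair was Kdm4b with Phf2 (rho = 0.67, exact permutation p = 0.0719, adjusted p = 0.671), and the lowest, the pair with an unadjusted p under 0.05, was Kdm3a with Kdm4b (rho = -0.72, exact permutation p = 0.0206, adjusted p = 0.578).

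Kdm4b and Phf8 gave the lowest Pearson's r (r = -0.84, exact permutation p = 0.00563, adjusted p = 0.158; rho = -0.70, exact permutation p = 0.0584, adjusted p = 0.671). Without supplied embryo 2 and withdrawn embryo 5, the farthest from the median of Kdm4b, r was -0.82, and with each embryo left out it lay between -0.918 and -0.785. In withdrawn embryos 3 and 5 and supplied embryos 2 and 5, Phf8 lay 0.041 to 0.061 above its group mean and Kdm4b between -0.098 and 0.0035 from its own. In the other 6 embryos, Phf8 was at -0.041 to -0.021 and Kdm4b at 0.016 to 0.056. The embryos were split at the widest gap in the group-centred Phf8 values, so the gap between the Phf8 ranges follows from the split. The Kdm4b ranges restate the r of this pair, which was the farthest from 0 of the 28. Whether the embryos form separate sets was not tested. Before centring, Phf8 in withdrawn embryos 1, 2 and 4 (10.30, 10.32 and 10.31) was close to that in supplied embryos 2 and 5 (both 10.32). Of all genes, 0.508% were as far from 0 in their r with Kdm4b, and 0.464% in their r with Phf8. With quantile normalization the pair passed (r = -0.86, exact permutation adjusted p = 0.0233).

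**Figure D3:**
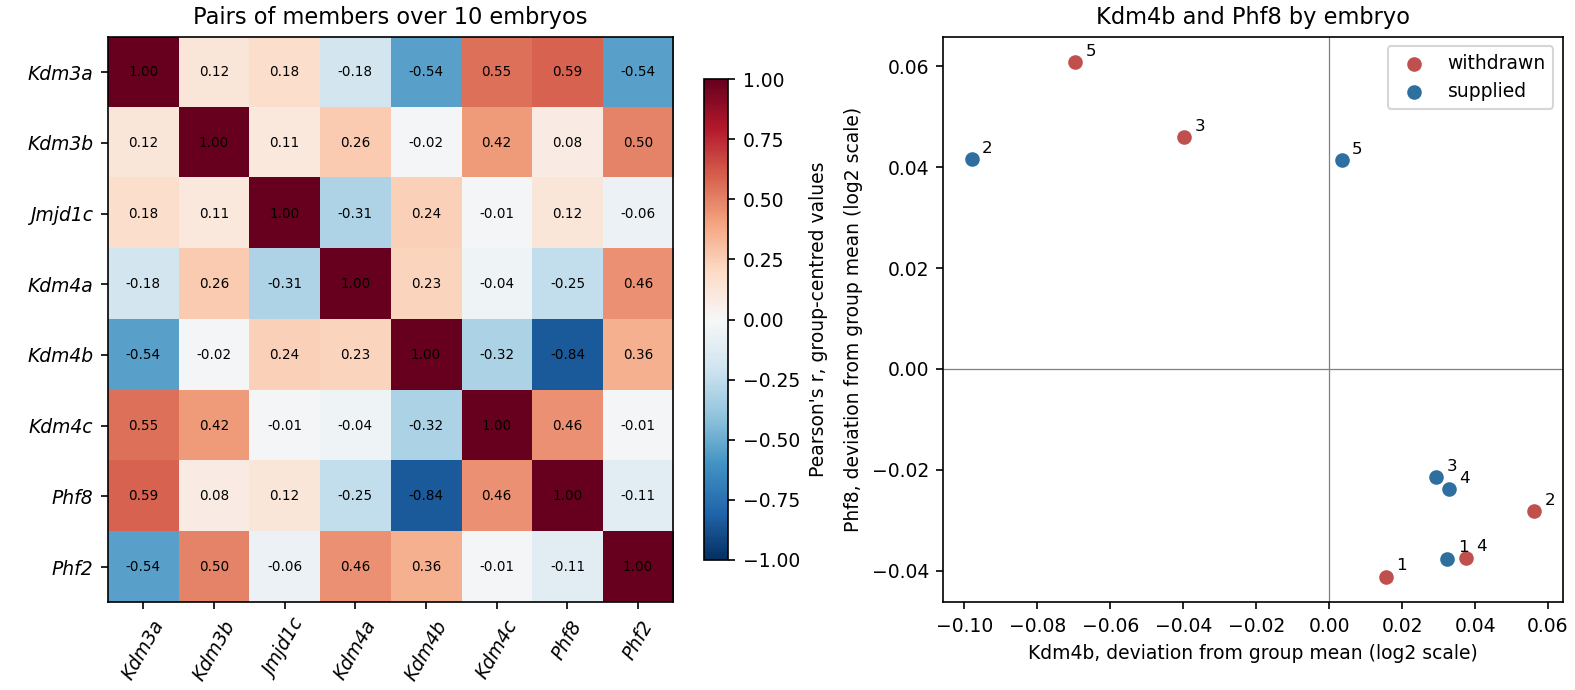
The left panel gives Pearson's r for each pair of members over 10 embryos, on values centred within each group; the right panel plots the deviation from the group mean of Phf8 against that of Kdm4b (log2 scale), with embryo numbers beside the points. The pooled r is -0.84, and the widest gap in the centred Phf8 values lies between the upper 4 embryos and the lower 6.

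The genes whose group-centred values were most like those of each member over the 10 embryos are given as a description, since each was the highest in the whole table. They were Gm16517 for Kdm3a (r = 0.94), Atad2b for Kdm3b (0.92), Mdga1 for Jmjd1c (0.96), Plscr1 for Kdm4a (0.99), Zfp11 for Kdm4b (0.92), Tceal6 for Kdm4c (0.92), Fars2 for Phf8 (0.96) and Eif4g1 for Phf2 (0.96). The values for Kdm3b and Atad2b leaned on single embryos, with r down to 0.75 when an embryo was left out. For the mean of the 8 members they were Aim2 (0.92), Cep110 (0.92), Wasl (0.92), Ubap2 (0.90) and Ptpn14 (0.90).

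None of the other genes of the pathway passed the test either. Over 7 lists with 80 measured genes, 0 had a limma adjusted p under 0.05 (the smallest was 0.900) and 3, or 3.75%, had an unadjusted p under 0.05, against 5.3% of all genes. These 3 were Prdm16, Setdb1 and Atf7ip.

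Of the other H3K9 demethylases, 0 of 4 passed. Kdm1a, the flavin-dependent enzyme, which does not use vitamin C, was at 11.95 ± 0.0645 in withdrawn and 11.98 ± 0.0655 in supplied embryos (difference -0.028). Jhdm1d, now named Kdm7a and a relative of Phf8, was at 10.76 ± 0.0335 and 10.81 ± 0.124 in withdrawn and supplied embryos (difference -0.053). Hr, known in hair follicles, and Kdm4d, a KDM4 gene known from testis, differed by 0.016 and 0.021, with Kdm4d at 4.44 and 4.42, near the floor of the table. The demethylases of other histone marks had 0 of 10 past the threshold and a median of 0.016. Kdm1b, which acts on lysine 4 of histone H3, was at 9.19 ± 0.0445 in withdrawn and 9.12 ± 0.0669 in supplied embryos (difference 0.071, limma adjusted p = 0.963), and Jmjd6 differed by 0.062.

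The enzymes that write the H3K9 mark had differences on both sides of 0, with 0 of 9 past the threshold and a median of -0.017. Prdm16, a regulator of fat and blood stem cells with reported H3K9 methyltransferase activity, was at 7.25 ± 0.141 in withdrawn and 7.46 ± 0.135 in supplied embryos. Its difference of -0.21 (SE 0.0692, limma adjusted p = 0.900) was the farthest from 0 in the 7 lists. Its relative Mecom was at 8.62 ± 0.148 and 8.73 ± 0.0493 in withdrawn and supplied embryos, a difference of -0.11, which was -0.065 without withdrawn embryo 1. Setdb1, which trimethylates H3K9 at retroelements, was at 11.43 ± 0.0267 in withdrawn and 11.34 ± 0.0867 in supplied embryos (difference 0.096, SE 0.0455, limma adjusted p = 0.931), and without supplied embryo 3 the difference was 0.063. Atf7ip, the protein that stabilises Setdb1, was at 12.56 ± 0.0875 in withdrawn and 12.67 ± 0.0337 in supplied embryos (difference -0.11, SE 0.0471, limma adjusted p = 0.928), on the other side of 0 from Setdb1. The dimethylating pair Ehmt1 and Ehmt2 (also called GLP and G9a) differed by 0.066 and 0.012, and the value of Ehmt2 was -0.0070 with quantile normalization. Suv39h1 and Suv39h2, which trimethylate H3K9 in constitutive heterochromatin, differed by -0.017 and -0.10, and Setdb2 and Prdm2 by -0.060 and 0.046.

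Readers of the mark and silencing factors, such as the HP1 genes Cbx1, Cbx3 and Cbx5, had 0 of 16 past the threshold, with 6 above and 10 below 0 and a median of -0.019. Mphosph8, a reader of the HUSH complex, differed by -0.059. Of 3 known partners of the family 0 passed, with Arid5b, the partner of Phf2, at 11.54 ± 0.0839 in withdrawn and 11.47 ± 0.0589 in supplied embryos (difference 0.072, limma adjusted p = 0.963). Zfp711, which brings Phf8 to its targets, differed by -0.028, and the corepressor Ncor1, which binds Kdm4a, differed by 0.031 (-0.015 with quantile normalization).

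Enzymes that make or use 2-oxoglutarate, succinate and fumarate, which feed or inhibit the demethylases, had 0 of 17 past the threshold and a median of 0.013. D2hgdh, which oxidises the inhibitor 2-hydroxyglutarate, differed by 0.069, and the succinate dehydrogenase subunit gene Sdhc by 0.078. Of the HIF target genes 0 of 21 passed, with 6 above and 15 below 0 and a median of -0.017. Bhlhe40 was at 8.78 ± 0.0770 in withdrawn and 8.86 ± 0.0831 in supplied embryos (difference -0.076, limma adjusted p = 0.972), and Fam162a differed by -0.090. The HIF targets of the family stood at 0.011 (Kdm3a), -0.059 (Kdm4b) and -0.036 (Kdm4c), inside the range of that list (-0.090 to 0.055). Of the members not named as HIF targets, Jmjd1c (0.045), Kdm4a (0.027) and Phf2 (0.039) also lay inside it. Kdm3b (0.081) and Phf8 (0.062) lay above it. Over all genes the median size of a difference without sign was 0.032, so a place inside this range is common. The part of HIF in these values was not tested.

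**Figure D4:**
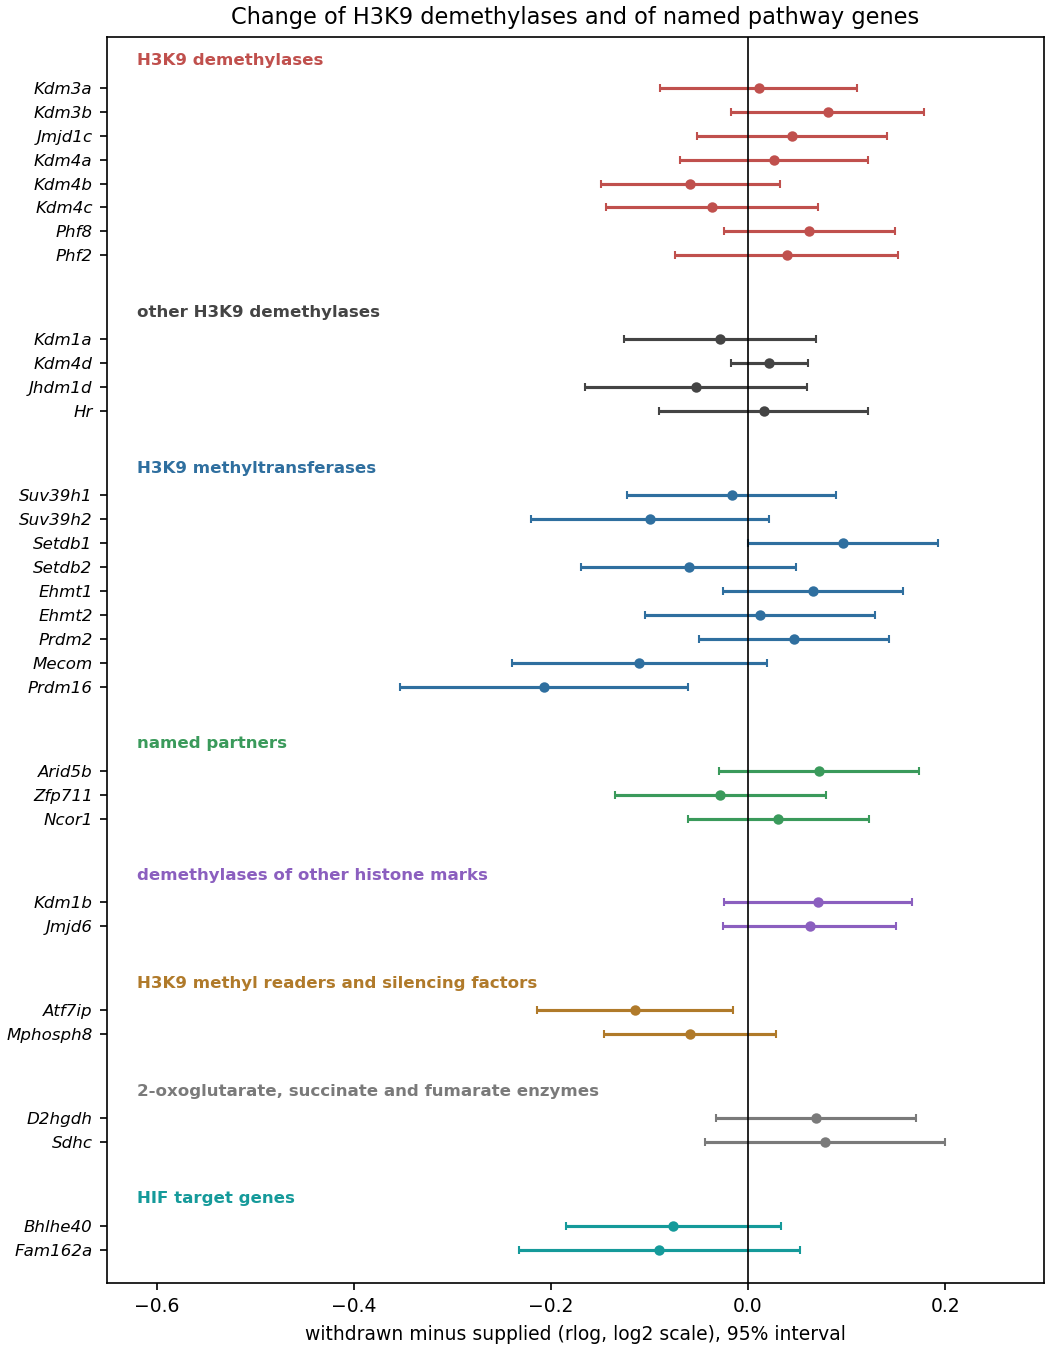
Points give withdrawn minus supplied (rlog, log2 scale) for the 8 members and the named genes of the other lists, with 95% intervals from limma (n = 5 embryos in each group). The intervals of all 8 members cover 0, and those of Prdm16, Atf7ip and, at its edge, Setdb1 do not, before adjustment over all genes.

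**Figure D5:**
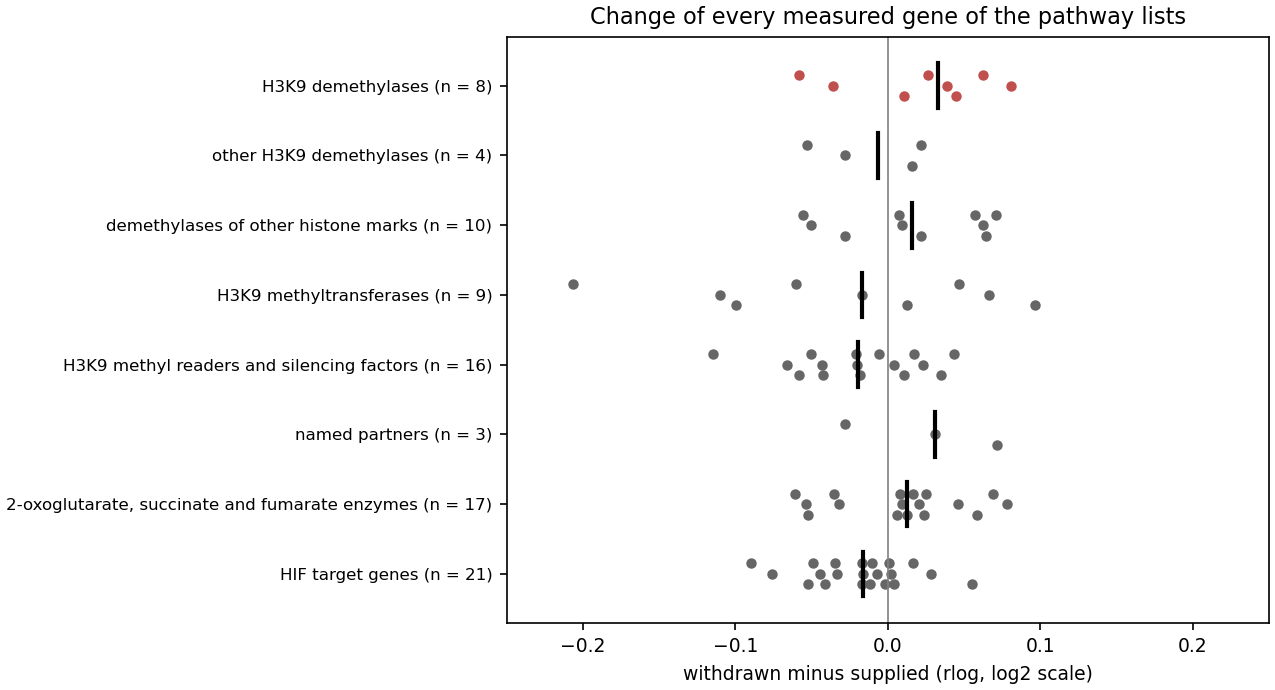
Each point is 1 measured gene placed by its withdrawn minus supplied difference (rlog, log2 scale), with the members in red, the other lists in grey and a black bar at each list's median; vertical offsets only separate points. List medians lie between -0.019 (readers and silencing factors) and 0.033 (the members).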

How the data were processed

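The deposited table holds 1 rlog value per gene and sample, on a log2 scale, which the authors normalized between samples. The submitters' processing notes name Trim Galore (0.4.0), TopHat2 (2.1.1), the build mm9 and DESeq2 (1.20.1); annotation and counting are not stated. Per the labels' protocols, libraries were made from 2 ng of total RNA. Each of the 10 columns matched 1 sample title, and no pair of samples had equal values (0%).

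Genes with a mean of at least 3 were kept, which removed 0 of 13578. Withdrawn and supplied embryos were compared gene by gene with limma (3.58.1, R 4.3.3), using a variance trend without covariates, and p-values were adjusted over all genes at 0.05. Pairs of members were compared by exact permutation in Python 3.11.15. Tests were tried on simulated data. Shrinkage by rlog understates differences, most for weakly expressed genes. Gene types, lengths and overlaps came from GENCODE M21 and promoters from RefSeq, both on GRCm38.

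The members and lists were chosen with earlier results of these data known. Named were all members, the other H3K9 demethylases, methyltransferases and partners, the 2 genes of smallest p in each other pathway list, and the genes most like the members. Titles give both groups the numbers 1 to 5; other settings included these as a block, other scalings, filters and variance estimates, and leaving out each embryo.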

Additional observations from a re-analysis of the deposited data

Results flagged for a closer look

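In 64 groups of 5 embryos (32 named genes, 2 groups each), 4 had a highest or lowest embryo far from the other 4 by Dixon's criterion, and chance flags about 1 in 20 such groups. Kdm3b in withdrawn embryo 4 was at 12.72, against 12.53 to 12.58 in the other withdrawn embryos. Kdm4b in supplied embryo 2 was at 10.79, against 10.89 to 10.92 in the other supplied embryos, and without it the difference of Kdm4b was -0.083. Suv39h2 in withdrawn embryo 5 was at 8.73, against 8.44 to 8.49 in the other withdrawn embryos. Ncor1 in withdrawn embryo 1 was at 13.25, while the remaining withdrawn embryos were at 13.36 to 13.40, and this embryo had the lowest Phf2 (11.69). Withdrawn embryo 1 was also the lowest of all embryos in Kdm2a (12.20), Kdm6b (12.83), Cbx5 (13.58) and Uhrf1 (11.72). The same held for Hells (11.03), Atf7ip (12.45) and Mecom (8.44). It was the highest in Idh3b (10.99), Sdhb (10.21), Sdhc (10.38) and Sdhd (9.79). These genes are examples and not a full list. Withdrawn embryo 1 was also the lowest in Suv39h1 (9.85), Suv39h2 (8.44), Trim28 (13.44) and Wiz (11.34). It was also the highest in Idh1 (11.83), Idh2 (12.93) and Kdm5a (12.40). In some listed genes, such as Kdm3a (12.70), it was at neither end. The cause was not tested.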

How the results depend on the processing

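The count of members past the threshold was 0 of 8 by limma in all 19 other settings, and 0 of the 152 member values had an unadjusted p under 0.05; the smallest limma adjusted p was 0.808. The median difference of the members stayed between 0.013 and 0.043. Of the 152 values 5 changed sign: with quantile normalization Kdm3a was at -0.0096 and Kdm4a at -0.0014, and with each embryo left out in turn Kdm3a lay between -0.0098 and 0.040. Among the other named genes, Ehmt2 was at -0.0070 and Ncor1 at -0.015 with quantile normalization, and Ehmt2 at -0.0044 with embryos that share the first title number averaged. With each embryo left out, Ehmt2 lay between -0.030 and 0.038, Hr between -0.010 and 0.045, and Suv39h1 between -0.041 and 0.017. The count over all genes, 3 as reported, was 1 with a mean minimum of 7, no variance trend, quantile normalization or averaged embryos, 5 with robust variance estimation or sample weights, and 0 to 4 with an embryo left out (0 without withdrawn embryo 5 or supplied embryo 1, 1 without withdrawn embryos 2 or 4). Pairs of members past the threshold were 0, but 1 with quantile normalization (Kdm4b with Phf8, r = -0.864, exact permutation adjusted p = 0.0233), and 0 with each embryo left out, where that r lay between -0.918 and -0.785. The causes were not tested. With the replicate number as a block, 0 members and 2 genes in all passed by limma. Correlations of group-centred values between same-numbered embryos ran from -0.36 to 0.17. These correlations were not tested, so whether the numbers pair the samples stays unknown. Read depth is unknown, so it cannot be said how far it limits these intervals.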
